A study of Homo sapiens with 6 samples.

Results

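The small nucleolar RNA host genes GAS5, DANCR, SNHG1, SNHG3, SNHG5, SNHG7, SNHG8, SNHG12 and SNHG16 were followed in L428 cells after inhibition of the microRNA miR-9. Members were all probe sets whose annotation holds exactly 1 of these 9 gene symbols, which gave 17 of the 54675 probe sets on the array, for 9 of its 21357 annotated gene symbols. GAS5 had 5 probe sets, SNHG12 had 3, SNHG7 and SNHG16 had 2 each, and the other 5 genes had 1 each. Only 2 of the 17, GAS5 1560402_at and DANCR 224870_at, list a single symbol. The other 15 also list small nucleolar RNAs, 27 in all, and each of the 27 lies inside its host gene in the GRCh38.p14 gene table. By annotation those 15 probe sets do not separate the spliced host transcript from its introns.

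L428 is an established cell line of Hodgkin lymphoma. Cells of one group were nucleofected with a locked nucleic acid (LNA) that inhibits miR-9, and cells of the other with a scrambled LNA, here called the scrambled control, so both groups carry an LNA and the electrical transfection. Total RNA came from cells 9 h after transfection, with 3 Affymetrix HG-U133 Plus 2.0 arrays in each group. Whether replicates came from separate cultures is not in the labels. The p-values then measure only the spread between these samples, which may be technical, and the number of arrays limits the precision.

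Small nucleolar RNAs guide the chemical modification of ribosomal RNA in the nucleolus. Box C/D RNAs direct ribose methylation and box H/ACA RNAs direct pseudouridylation. In mammals most are cut out of the introns of host genes, some of which encode ribosomal proteins and some of which, like these 9, make long noncoding RNAs. The spliced exons of several such hosts are short-lived because translating ribosomes expose them to nonsense-mediated decay, and many hosts start transcription in a pyrimidine tract, as ribosomal protein genes do.

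The inhibitor's target is shown first, since it defines the treated group. The labels do not say which strand of the miR-9 hairpin the LNA pairs with, and both mature strands are given as RefSeq lists them, 5′ to 3′, with the seed (bases 2 to 8) in capitals.
hsa-miR-9-5p: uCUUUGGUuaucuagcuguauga
hsa-miR-9-3p: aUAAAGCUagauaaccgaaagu

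The starts of 5 host genes are shown because they hold at least 1 of the 3 sequence features searched for. Each line gives 40 bases before and 20 bases from the RefSeq start (GRCh38.p14), 5′ to 3′ on the gene's strand, and capitals mark the longest unbroken run of C and T within 20 bases of that start.
SNHG5: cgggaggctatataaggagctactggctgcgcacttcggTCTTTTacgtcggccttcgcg
SNHG7: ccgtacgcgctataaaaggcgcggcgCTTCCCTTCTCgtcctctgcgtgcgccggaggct
SNHG8: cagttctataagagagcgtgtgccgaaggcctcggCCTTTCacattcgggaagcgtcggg
SNHG12: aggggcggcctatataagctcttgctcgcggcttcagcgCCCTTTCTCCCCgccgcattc
SNHG16: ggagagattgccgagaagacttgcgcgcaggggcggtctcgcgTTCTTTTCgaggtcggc

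These windows lie at chr6:85678714-85678773 (minus strand) for SNHG5, chr9:136728165-136728224 (minus) for SNHG7, chr4:118278722-118278781 (plus) for SNHG8, chr1:28581854-28581913 (minus) for SNHG12 and chr17:76557724-76557783 (plus) for SNHG16. A promoter sequence was matched for 9 of 9 genes. TATAA on the gene's strand within 50 bases before the start was present in 4 of the 9 (SNHG5, SNHG7, SNHG8 and SNHG12), against 4.74% of 35116 promoters. A run of at least 8 C or T within 20 bases of the start, on the gene's strand, was present in 3 of the 9 (SNHG7, SNHG12 and SNHG16), against 17.5% of promoters. The SNHG12 run began at base -1 and covered the start. The SNHG7 run began at base -14 and ended before the start, and the SNHG16 run began at base 4, after it. The E-box CACGTG, which reads the same on both strands, lay in the 300 bases around the start of SNHG7 alone, against 7.26% of promoters. SNHG12 and SNHG7 hold both of the first 2 features and, as given below, had the largest and the smallest differences between the groups.

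The comparison asks whether host RNA levels change within 9 h of miR-9 inhibition. Values are log2 expression, and a positive difference means higher with the inhibitor, each with a standard error from limma (n = 3 arrays per group). In the deposited values the mean of the inhibitor arrays was the higher one at 17 of 17 probe sets, against 66.9% of the 27307 probe sets tested, and after quantile normalization at 13 of 17, against 51.5%. The differences ran from 0.03 at SNHG7 1552729_at to 0.32 at SNHG12 223773_s_at, at most a 1.25-fold change, with a median of 0.23 against 0.06 over all tested probe sets. After quantile normalization the medians were 0.06 and 0.004. All 17 passed the level filter, and 0 passed a limma adjusted p under 0.05 (0% of all tested), with adjusted p from 0.296 to 0.884. At a limma unadjusted p under 0.05, 4 of 17 lay higher (GAS5 224741_x_at, GAS5 228238_at, DANCR and SNHG16 224603_at), or 23.5% against a background of 13.8%, and 0 lay lower against 0.626%.

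The members are bright, and bright probe sets as a whole lay higher with the inhibitor. Among the 5462 tested probe sets in the brightest 20% by level, 95.3% were higher, with a median of 0.19, and 12 of the 12 members there were higher, with a median of 0.24. At a limma unadjusted p under 0.05 in the higher direction these 12 gave 4, against 31.2% of that set. After quantile normalization 9 of the 12 were higher, against 56.2% of the set. The direction and the share at an unadjusted p under 0.05 were therefore close to those of other bright probe sets.

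DANCR, a noncoding RNA known for holding epidermal progenitor cells in an undifferentiated state, had the smallest p among the members. Its level at 224870_at was 10.91, 10.78 and 10.76 on the miR-9 inhibitor arrays, against 10.45, 10.61 and 10.57 on the scrambled control arrays. All 3 arrays with the inhibitor lay above all 3 without it. DANCR averaged 10.82 ± 0.08 and 10.54 ± 0.08 (SD, n = 3 each), a log2 difference of 0.27 ± 0.07 (limma unadjusted p = 0.00600, adjusted p = 0.296). The DANCR difference lay between 0.23 and 0.31 whichever array was left out, and after quantile normalization it was 0.08 ± 0.06 and the groups overlapped.

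GAS5, named for its accumulation in growth-arrested cells and known to bind the glucocorticoid receptor as a decoy, carries 8 of the listed box C/D RNAs. At 224741_x_at GAS5 was at 13.25, 12.95 and 13.08 with the miR-9 inhibitor, against 12.73, 12.83 and 13.0 with the scrambled control. The groups overlapped there, since scrambled replicate 3 lay above miR-9 inhibitor replicate 2. The difference was 0.24 ± 0.10 (limma unadjusted p = 0.0445, adjusted p = 0.339). The other bright GAS5 probe sets gave differences of like size, 0.23 ± 0.11 at 224841_x_at, 0.28 ± 0.13 at 227517_s_at and 0.25 ± 0.10 at 228238_at. At 224841_x_at it was 0.15 without inhibitor replicate 1 and 0.15 without scrambled replicate 1, and at 227517_s_at 0.17 without scrambled replicate 1. At 228238_at GAS5 was at 10.64, 10.35 and 10.62 with the inhibitor, against 10.29, 10.19 and 10.39 without it, and the groups overlapped through the same 2 arrays.

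The remaining GAS5 probe set, 1560402_at, lists GAS5 alone and lay near the level filter. It was at 7.73, 7.78 and 7.91 with the miR-9 inhibitor, against 7.20, 7.67 and 7.72 with the scrambled control. The groups did not overlap, though by only 0.01 between the nearest arrays, and scrambled replicate 1 stood apart at the low end. The difference at 1560402_at was 0.27 ± 0.14 (limma adjusted p = 0.392), 0.27 after quantile normalization and 0.11 without scrambled replicate 1. All 5 GAS5 probe sets kept the higher direction after quantile normalization, with the differences of the other 4 between 0.05 and 0.10.

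SNHG1 carries 8 of the listed box C/D RNAs and is known as a host gene whose introns, and not its exons, are conserved. SNHG1 at 224610_at was at 12.05, 11.93 and 12.26 with the miR-9 inhibitor, against 11.56, 11.76 and 12.07 with the scrambled control. Scrambled replicate 3 lay above 2 of the 3 miR-9 inhibitor arrays, so the groups overlapped. The SNHG1 difference was 0.28 ± 0.14 (limma adjusted p = 0.388), 0.16 without scrambled replicate 1, and 0.11 ± 0.11 after quantile normalization.

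SNHG12 hosts 3 of the listed box H/ACA RNAs, and all 3 of its probe sets were highest on inhibitor replicate 3 and lowest on scrambled replicate 1. At 223773_s_at SNHG12 was at 11.13, 10.86 and 11.25 with the miR-9 inhibitor, against 10.59, 10.63 and 11.06 with the scrambled control. The 2 lowest values were scrambled replicates 1 and 2, and scrambled replicate 3 lay above miR-9 inhibitor replicate 2. The difference of 0.32 ± 0.15 was the largest of the 17 and did not pass (limma adjusted p = 0.373). SNHG12 differed by 0.18 ± 0.15 at 223774_at and by 0.24 ± 0.14 at 228990_at. Without inhibitor replicate 3 these were 0.06 and 0.14, and without scrambled replicate 3 they were 0.34 and 0.38. Without scrambled replicate 1 they were 0.10 and 0.16, and without scrambled replicate 2 the first was 0.10. After quantile normalization the SNHG12 differences were 0.13, 0.03 and 0.09, in the same order of probe sets.

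SNHG16, a host of 2 listed box C/D RNAs described as raised in aggressive neuroblastoma, was read by a pair of probe sets that disagreed on single arrays. At 224603_at SNHG16 was at 12.05, 11.85 and 11.86 with the miR-9 inhibitor, against 11.83, 11.65 and 11.69 with the scrambled control. The groups did not overlap, with 0.02 between the nearest arrays, and the difference was 0.20 ± 0.08 (limma unadjusted p = 0.0430, adjusted p = 0.337). At 224601_at SNHG16 was at 11.01, 11.03 and 11.17 with the inhibitor, against 10.54, 10.86 and 11.22 without it. Here the highest and the lowest array were both scrambled, and the difference of 0.20 ± 0.16 (limma adjusted p = 0.566) was 0.03 without scrambled replicate 1, where 224603_at gave 0.25, and 0.37 without scrambled replicate 3. After quantile normalization the SNHG16 probe sets differed by 0.01 and 0.007.

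SNHG3 and SNHG8 each host 1 listed box H/ACA RNA. SNHG3 at 215011_at was at 8.19, 8.30 and 8.60 with the miR-9 inhibitor, against 8.06, 8.10 and 8.41 with the scrambled control. SNHG8 at 225220_at was at 11.51, 11.23 and 11.35, against 11.05, 11.18 and 11.30. In both genes 1 scrambled array, replicate 3, reached into the range of the miR-9 inhibitor arrays. The differences were 0.17 ± 0.13 for SNHG3 and 0.19 ± 0.10 for SNHG8 (limma adjusted p = 0.543 and 0.398), and after quantile normalization they were 0.10 ± 0.12 and -0.003 ± 0.07. The SNHG3 difference was 0.06 without inhibitor replicate 3, 0.11 without scrambled replicate 1 and 0.28 without scrambled replicate 3. The SNHG8 difference was 0.11 without inhibitor replicate 1 and 0.12 without scrambled replicate 1.

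SNHG5 and SNHG7 showed the smallest differences. SNHG5, a host of 2 listed box C/D RNAs, was at 13.98, 13.59 and 13.74 at 225155_at with the miR-9 inhibitor, against 13.44, 13.78 and 13.83 with the scrambled control. SNHG7, a host of 2 listed box H/ACA RNAs, was at 9.85, 9.73 and 9.81 at 229050_s_at, against 9.67, 9.82 and 9.79. The groups were interleaved in both genes. The differences were 0.09 ± 0.13 for SNHG5 and 0.04 ± 0.07 for SNHG7 at 229050_s_at (limma adjusted p = 0.758 and 0.804), and 0.03 ± 0.09 for SNHG7 at 1552729_at. SNHG5 was below 0 without inhibitor replicate 1 or scrambled replicate 1, SNHG7 229050_s_at without scrambled replicate 1, and SNHG7 1552729_at without inhibitor replicate 1, inhibitor replicate 3 or scrambled replicate 2. All 3 turned after quantile normalization, to -0.05, -0.13 and -0.02. At SNHG7 229050_s_at the miR-9 inhibitor arrays then lay below all scrambled arrays (limma unadjusted p = 0.0563, adjusted p = 0.900).

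**Figure D1:**
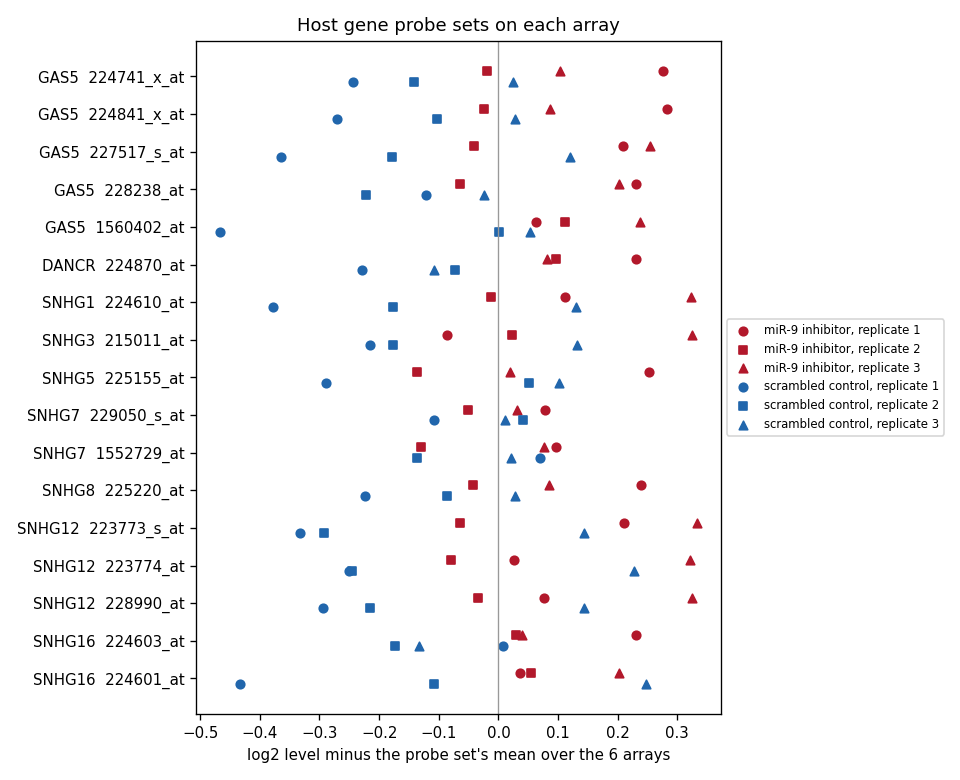
Level of each of the 17 host gene probe sets on each array, as log2 level minus the probe set's mean over the 6 arrays, with red for the miR-9 inhibitor, blue for the scrambled control and the marker shape for the replicate number. Scrambled replicate 1 (blue circles) was the lowest array at 14 of 17 probe sets, and scrambled replicate 3 (blue triangles) reached into the range of the miR-9 inhibitor arrays at most of them.

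Separation without overlap was found at 3 of 17 probe sets in the higher direction (GAS5 1560402_at, DANCR 224870_at and SNHG16 224603_at), or 17.6% against a background of 18.1%, and at 0 in the lower direction, against 3.97%. After quantile normalization 1 of 17 was free of overlap in the higher direction, against 5.98%, and 1 in the lower, against 5.72%. Of the 12 members in the brightest 20%, 2 were free of overlap in the higher direction, against 34.6% of that set in the deposited values.

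Scrambled replicate 1 was the lowest of the 6 arrays at 14 of 17 members and scrambled replicate 2 at the other 3, while the highest array was miR-9 inhibitor replicate 1 at 9, replicate 3 at 7 and scrambled replicate 3 at 1. Scrambled replicates 1 and 2 also had the lowest array scale, taken here as the 90th percentile of all probe sets. Inhibitor replicate 2 lay above scrambled replicate 3 on that scale, and below it in the members' median deviation (-0.03 against 0.05). Whether array scale sets the members' order was not tested. The 90th percentile of all probe sets was 9.57, 9.53 and 9.57 on the miR-9 inhibitor arrays, against 9.28, 9.45 and 9.47 on the scrambled arrays (difference 0.16, two-sided exact permutation p = 0.1, the smallest that 3 against 3 arrays allow). The medians ran the other way, at 7.097, 7.098 and 7.107 on the inhibitor arrays, against 7.150, 7.120 and 7.112 on the scrambled arrays. The scrambled arrays were thus not lower throughout. Without scrambled replicate 1 the members lay higher at 15 of 17 (background 63.2%), with a median difference of 0.15, and 2 of 17 lay higher at a limma unadjusted p under 0.05 (background 10%). The same count was 12 of 17 without scrambled replicate 3 (background 15.2%) and 1 of 17 without scrambled replicate 2 (background 12.8%). It was 8 without inhibitor replicate 2 (background 9.13%), 1 without inhibitor replicate 1 (background 8.43%) and 1 without inhibitor replicate 3 (background 11.7%). With a stricter level filter 15 members remained and 2 of them lay higher, or 13.3% against 18.8%, and with limma-trend 1 of 17 did, or 5.88% against 10.6%. After quantile normalization limma gave 0 of 17 in either direction at an unadjusted p under 0.05, against 2.38% higher and 2.17% lower over all tested probe sets. Without the level filter that scaling gave 1 of 17 lower (SNHG7 229050_s_at), against 2.19%. The count thus changed with single arrays of both groups and with the settings.

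Each member was set beside the 1000 tested probe sets nearest to it in mean level, whose median difference ran from 0.02 to 0.20. Of the 17 members, 12 lay above that median and 5 below it (SNHG5, both SNHG7 probe sets, SNHG8 and SNHG16 224601_at). The excess had a median of 0.05 and ran from -0.14 at SNHG7 229050_s_at to 0.26 at GAS5 1560402_at. SNHG12 223773_s_at exceeded its level by 0.12, SNHG1 by 0.084, DANCR by 0.07 and GAS5 224741_x_at by 0.07, each less than the standard error of its own difference. With replicate number as a block, described below, SNHG12 223773_s_at and SNHG1 exceeded their level by more than the standard errors, 0.084 and 0.081. DANCR and GAS5 224741_x_at did not. The extremes, GAS5 1560402_at and SNHG7 229050_s_at, departed from their level by more than the standard errors of their differences, 0.14 and 0.07. The part of the array scale in the members' differences was not tested beyond these scalings.

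**Figure D2:**
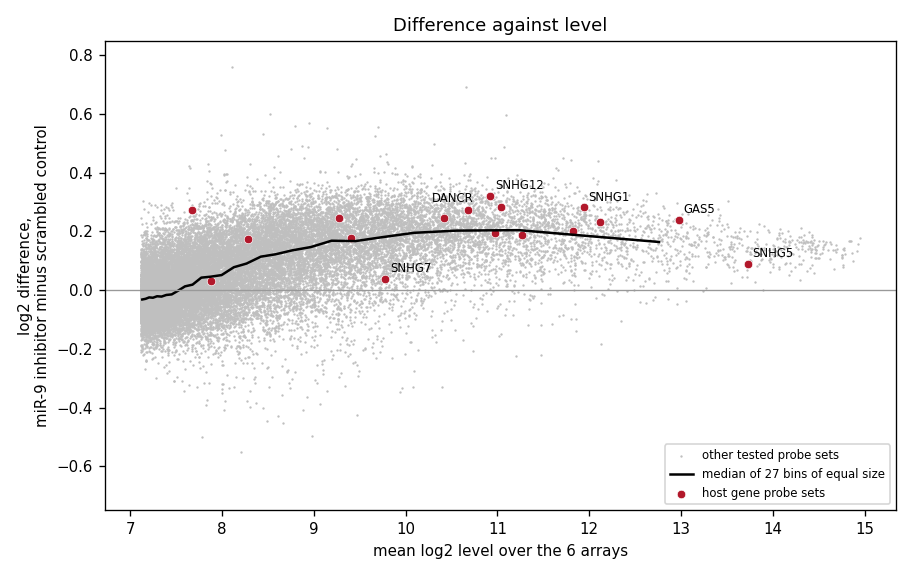
Log2 difference (miR-9 inhibitor minus scrambled control) of the 27307 tested probe sets against their mean log2 level, with the 17 host gene probe sets in red and the median of 27 bins of equal size as a line. Most host gene probe sets lie close to the line, which reaches about 0.20 at bright levels, with GAS5 1560402_at above it at the dim end and SNHG7 229050_s_at below it.

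**Figure D3:**
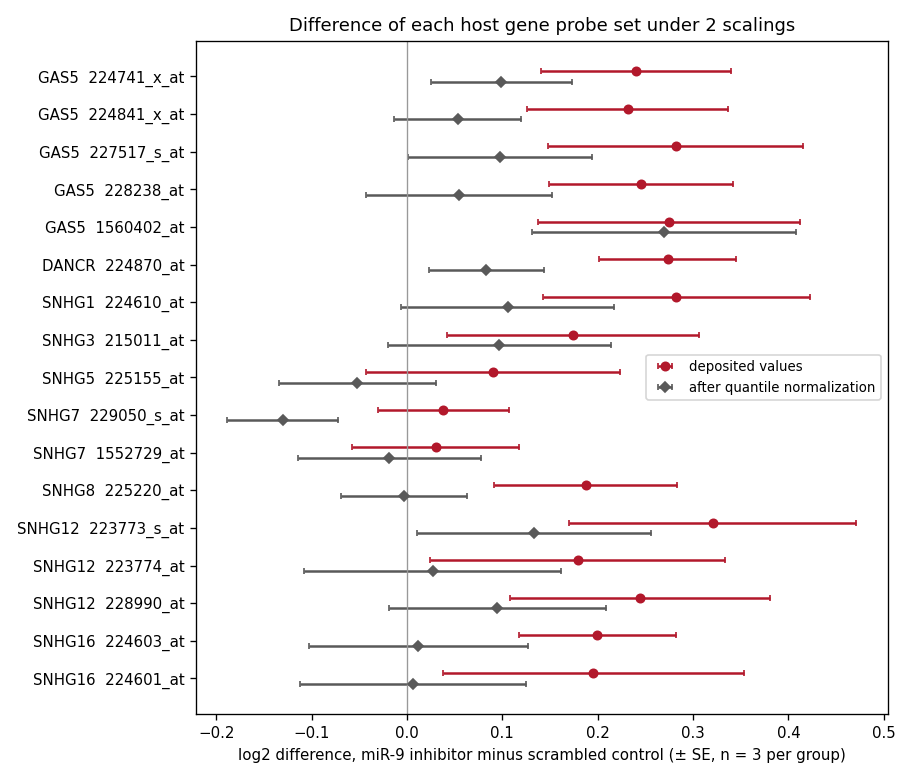
Log2 difference of each host gene probe set with its limma standard error (n = 3 arrays per group), in the deposited values (red circles) and after quantile normalization (grey diamonds). The signed difference was lower after quantile normalization at each of the 17, by 0.005 at GAS5 1560402_at and by 0.05 to 0.19 at the others. At SNHG7 229050_s_at it went from 0.04 to -0.13 and so grew in size.

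Same-numbered arrays of the groups deviated together (r = 0.231, 0.193 and 0.634 for numbers 1, 2 and 3), so the members were also read within pairs. Arrays of different numbers reached r = 0.168. No label gives the pairing, which was taken from these same values. The difference was positive in 3 of 3 pairs at 14 of 17 probe sets, against 40.2% of all tested probe sets, and at 9 of the 12 members in the brightest 20%, against 67% of that set. It was so at 7 of 17 after quantile normalization, against 21.3%. SNHG5, SNHG7 229050_s_at and SNHG16 224601_at were the exceptions in the deposited values. Pair 1 gave the largest difference at 15 of 17 members. DANCR differed by 0.46, 0.17 and 0.19 in pairs 1, 2 and 3, GAS5 224741_x_at by 0.52, 0.12 and 0.08, and SNHG12 223773_s_at by 0.54, 0.23 and 0.19. SNHG3 differed by 0.13, 0.20 and 0.19, and SNHG5 by 0.54, -0.19 and -0.08.

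With replicate number as a block, 11 of 17 members had a limma unadjusted p under 0.05 in the higher direction, or 64.7% against a background of 21.8%, and 0 passed the adjusted threshold (adjusted p from 0.159 to 0.776). The 11 were 4 of the 5 GAS5 probe sets, DANCR, SNHG1, SNHG3, all 3 of SNHG12 and SNHG16 224603_at. In the brightest 20% this held for 7 of the 12 members, against 45.5% of that set. With quantile normalization and the block together, 2 of 17 did so in the higher direction (GAS5 1560402_at and SNHG12 223773_s_at; background 6.47%) and 1 in the lower (SNHG7 229050_s_at; background 4.19%).

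**Figure D4:**
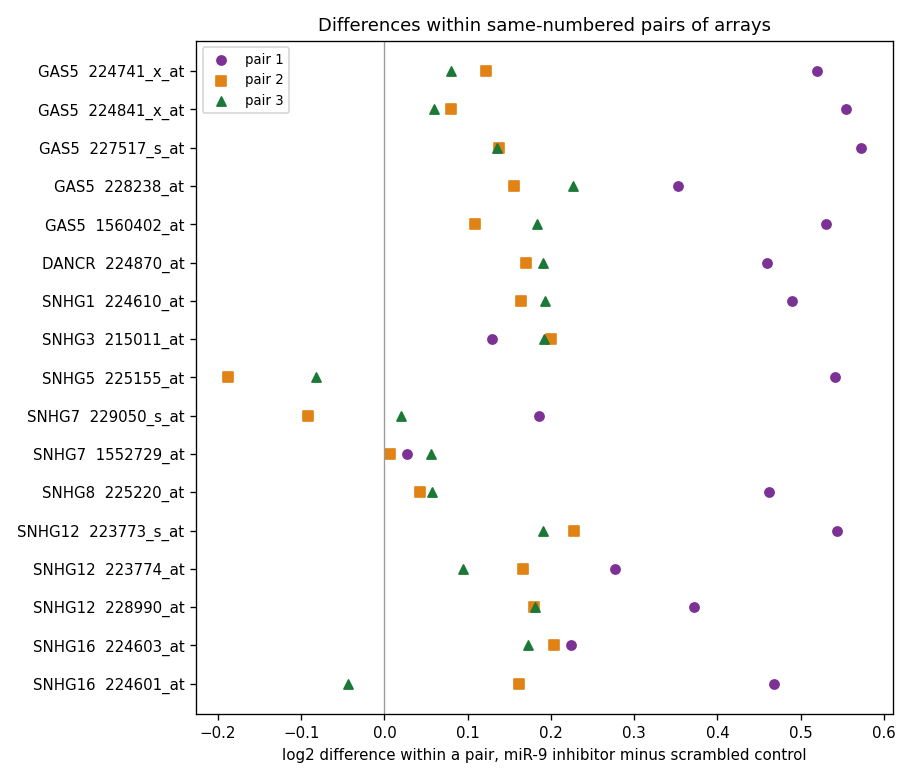
Log2 difference within each same-numbered pair of arrays, miR-9 inhibitor minus scrambled control, for the 17 host gene probe sets. Pairs 2 and 3 (squares and triangles) lie mostly between 0.04 and 0.23, while pair 1 (circles) reaches 0.57 at GAS5 227517_s_at.

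Related genes gave the setting. Each gene was read at its brightest tested probe set, and over all 12389 genes so read the median difference was 0.08, with 70.1% higher and 17.4% higher at a limma unadjusted p under 0.05. After quantile normalization 49.6% of these genes were higher, with a median of -0.0008. No gene of the 4 lists passed the adjusted threshold. Of 17 other noncoding hosts 11 were tested, with a median of 0.11, 9 higher, 2 lower and 1 at an unadjusted p under 0.05. That gene was SNHG17, at 9.82 ± 0.11 with the inhibitor and 9.56 ± 0.15 without it (SD, n = 3 each), a difference of 0.26 ± 0.10 (limma adjusted p = 0.316). EPB41L4A-AS1 differed by 0.25 ± 0.13 and SNHG19 by 0.28 ± 0.14. ZFAS1, another host of box C/D RNAs, differed by 0.11 ± 0.17 and is named here after its value was seen. After quantile normalization 5 of these 11 were higher, against 49.6% of all genes, and their median was -0.008.

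Of 45 protein-coding hosts 34 were tested, with a median of 0.15, 31 higher and 3 lower, and 6 of them higher at an unadjusted p under 0.05. Most of the 34 were as bright as the brightest tested probe sets described above. Of those probe sets 95.3% were higher, with a median of 0.19, and 31.2% were higher at a limma unadjusted p under 0.05. CNOT1, the scaffold of the CCR4-NOT deadenylase, differed by 0.32 ± 0.08, PTCD3, a mitochondrial ribosome protein, by 0.24 ± 0.07, and NOP58, a core protein of box C/D particles, by 0.20 ± 0.06. After quantile normalization 18 of the 34 were higher, against 49.6% of all genes, with a median of 0.009. The median of the 17 members after that scaling, 0.06, lay above those of all 4 lists, which was not tested. The units differ, since members were counted by probe set, with 5 for GAS5 and 3 for SNHG12, and lists by gene.

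Proteins that assemble small nucleolar particles were higher at 18 of 18 tested genes in the deposited values, with a median of 0.16. Of all genes 70.1% were higher. Of these 18, 6 were higher at a limma unadjusted p under 0.05, against 17.4% of all genes. Most of the 18 lay above 9.48, the lower bound of the brightest tested probe sets described above. Of those probe sets 95.3% were higher, with a median of 0.19, and 31.2% were higher at a limma unadjusted p under 0.05. The values of this list were thus close to those of bright probe sets. After quantile normalization 9 of the 18 were higher, against 49.6% of all genes. NUFIP1, a box C/D assembly factor, differed by 0.29 ± 0.07, NOLC1, a nucleolar chaperone of these particles, by 0.32 ± 0.09, and RUVBL1, an ATPase of the assembly complex, by 0.20 ± 0.06 (limma adjusted p = 0.296 for each). Fibrillarin (FBL), the methyltransferase of box C/D particles, differed by 0.18 ± 0.15 and is named here after its value was seen. Of 15 nonsense-mediated decay factors 9 were tested, with a median of 0.09, 7 higher, 2 lower and 4 at an unadjusted p under 0.05 in the higher direction. Over all genes the median was 0.08, with 70.1% higher and 17.4% higher at a limma unadjusted p under 0.05. The decay factors were not matched by level. UPF2, a core decay factor, differed by 0.30 ± 0.08, RBM8A, an exon junction protein, by 0.24 ± 0.09, and SMG8, a regulator of the SMG1 kinase, by 0.18 ± 0.07. After quantile normalization 4 of the 9 decay factors were higher, against 49.6% of all genes.

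**Figure D5:**
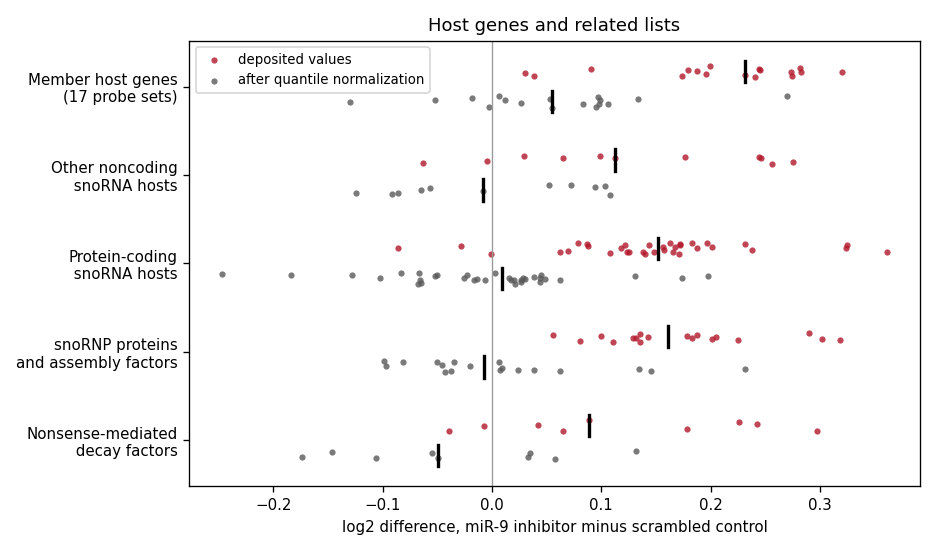
Log2 differences of the 17 host gene probe sets and of the tested genes of 4 related lists, in the deposited values (red) and after quantile normalization (grey), with black bars at the medians. Medians in the deposited values lie between 0.09 and 0.23 and after quantile normalization between -0.05 and 0.06.

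The nearest protein-coding genes on each side, and those overlapping a member, came to 21 genes, of which 13 were tested. Of these 13, 8 were higher in the deposited values, against 70.1% of all genes, with a median difference of 0.07. After quantile normalization 5 were higher, against 49.6%. In the higher direction 3 of the 13 had a limma unadjusted p under 0.05, against 17.4% of all genes. RCC1, a nuclear exchange factor that overlaps SNHG3, differed by 0.36 ± 0.14, PHACTR4 on the other side of SNHG3 by 0.33 ± 0.11, and USP46 next to DANCR by 0.29 ± 0.07, each at a limma unadjusted p under 0.05 (adjusted p = 0.320, 0.302 and 0.296). Whether the probe sets of RCC1 and SNHG3 read separate transcripts was not tested. ZBTB37, which overlaps GAS5, differed by 0.14 ± 0.07, TRNAU1AP, which overlaps SNHG12, by 0.07 ± 0.08, and SLC3A2, the amino acid transporter subunit next to SNHG1, by 0.07 ± 0.17. The other tested neighbours include those that lay lower. DIPK1B, which overlaps SNHG7, differed by -0.12 ± 0.09, and AGPAT2 and LCN10 beside SNHG7 by -0.11 ± 0.06 and -0.07 ± 0.07. RAB42 next to SNHG12 differed by -0.13 ± 0.06 and PRCD next to SNHG16 by -0.03 ± 0.06.

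By their deviations from the group means over the 6 arrays, the genes most like the mean of the 9 host genes were FAM20B, PPCS and CCDC12, each with a Pearson r of 0.999 or above over 6 arrays. These are the highest values among 12380 genes compared over few arrays, and they are given as a description. FAM20B differed by 0.14 ± 0.12, PPCS by 0.20 ± 0.10 and CCDC12 by 0.15 ± 0.08. After quantile normalization these differences were 0.05, 0.06 and -0.02.

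The label of the cells was checked against marker genes. All 6 Hodgkin cell markers (TNFRSF8, CCL17, IRF4, FSCN1, TRAF1 and FUT4) lay above the level filter, with a list mean between 11.21 and 11.45 on the miR-9 inhibitor arrays and between 11.13 and 11.27 on the scrambled arrays. Of the markers of other cells, 0 of 5 T cell, 1 of 4 B cell, 1 of 3 monocyte and 3 of 4 fibroblast genes did, and list means of these 4 lists ran from 6.83 to 7.31 on the inhibitor arrays and from 6.91 to 7.35 on the scrambled arrays. Fewer cells of a type and less RNA per cell cannot be told apart in such samples.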

How the data were processed

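The authors' deposited log2 values for 6 L428 samples were analysed. Per the submitters' processing notes they were made with affy and RMA from Affymetrix arrays, with versions not given in the sources used here. Per the series text, limma followed a removal of uninformative genes.

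The 62 control probe sets were removed. Of the others, the 27307 with a mean at or above the median (7.11) entered limma 3.58.1 in R 4.3.3 (lmFit, eBayes, two-sided, Benjamini-Hochberg over all tested, threshold 0.05). The annotation gave 41091 probe sets 1 gene symbol, 1801 several and 11721 none. A probe set with several was named by its host gene only where all other symbols were small nucleolar or Cajal body RNAs. This held for 96 probe sets, 15 of them members. Promoters and miRNAs came from RefSeq (GRCh38.p14).

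Members and lists were chosen with earlier results of these data known. Named genes are all member probe sets, up to 3 genes of smallest p per related list, neighbouring genes, and the 3 genes of most similar profile.

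The labels number the replicates. Across probe sets, deviations of arrays from their group means were correlated between the groups. Arrays of the same number, 1, 2 and 3, gave r = 0.231, 0.193 and 0.634. Arrays of different numbers gave r from -0.429 to 0.168, the highest for inhibitor replicate 1 with scrambled replicate 2. Arrays were paired by number, and the labels do not say what a number shares. These correlations are the ground for reading the numbers as pairs, so it rests on the values it was used on. Other filters, scalings, variance models, the block and the removal of single arrays were tried. Simulated data with known changes and independent noise were used only to check that the fits return the mean size of a change. They held no shift between arrays and no likeness of same-numbered arrays, so they do not bear on the p-values here. Figures used matplotlib 3.10.9 in Python 3.11.15.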

Additional observations from a re-analysis of the deposited data

How the results depend on the processing

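No alternative brought a member past a limma adjusted p under 0.05, and 203 of 219 recomputed member differences kept their direction. The remaining 16 turned. The level filters, limma-trend and the replicate block alone do not change a member's difference, so under those settings it could not turn. The 203 therefore include differences whose direction was fixed in advance. SNHG5 was at -0.052 after quantile normalization, with or without the replicate block, and at -0.062 with array weights. SNHG7 229050_s_at was at -0.13 and -0.028 under the same settings, SNHG7 1552729_at at -0.018 and SNHG8 at -0.0030 after quantile normalization, with or without the block. Leaving out each array in turn, SNHG5 ranged from -0.031 to 0.18, SNHG7 229050_s_at from -0.0066 to 0.073 and SNHG7 1552729_at from -0.031 to 0.10. The cause was not tested.

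The number of members higher at a limma unadjusted p under 0.05 was 4 of 17 in the deposited values (13.8% over all tested). With a stricter level filter it was 2 of 15 (18.8% over all tested), and with limma-trend 1 (10.6%). After quantile normalization it was 0 (2.38%), with the replicate block 11 (21.8%), and with both together 2 (6.47%). For the 2 probe sets that list 1 symbol only it was 1, and with quantile normalization and no level filter 0 (2.57%). These last 2 settings were chosen after seeing the data. The member count ranged from 1 to 12 when each array was left out, with shares over all tested from 8.43% to 15.2%. The number lower was 1 with quantile normalization and the block (4.19% over all tested) and 1 with quantile normalization and no level filter (2.19%). Over all tested probe sets the number higher, 3755, was 650 after quantile normalization, 5944 with the replicate block, 1767 with both, and from 2303 to 4163 without single arrays. The number lower, 171, was 1032 without the filter, 19 with the stricter filter, 593 after quantile normalization, 274 with the block, 1143 with both, 359 with limma-trend, 1183 with array weights, and from 42 to 856 without single arrays. Precision is limited by 3 arrays per group.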
